A study of Mus musculus with 4 samples.

Results

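The genes of 5 secreted or membrane-anchored signalling proteins, Penk, Calca, Nrn1, Spp1 and Sostdc1, were followed through T cells of the mouse meninges and choroid plexus, to ask which cells carried their RNA and what else those cells expressed. The 5 genes are a named set out of 31053 genes in the matrices, of which 15273 had at least 1 counted RNA molecule in a T cell. All 5 were detected in the T cells. They were picked with their levels in these same libraries in view, so their levels by age are given as a description with no test. The data are 4 droplet libraries of 5′ single-cell RNA, 1 for each combination of tissue (meninges or choroid plexus) and age (young or aged). Young mice were 10 weeks and aged mice 18 months old, all were female C57BL/6, and each library came from CD4 and CD8 T cells sorted by antibodies to CD3ε, CD4 and CD8 out of tissue pooled from 5 animals. With 1 library per condition there is no estimate of the spread between mice, and no p-value is given. Intervals are exact 95% Poisson limits for counts and exact 95% binomial (Clopper-Pearson) limits for shares, and cover counting error only.

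After limits on genes and mitochondrial RNA and removal of doublets, 4114 cells had at least 1 unique molecular identifier (UMI, 1 captured RNA molecule) of Cd3d, Cd3e or Cd3g, the genes of the CD3 complex, and are called T cells here. They numbered 1007 in young meninges, 605 in young choroid plexus, 1408 in aged meninges and 1094 in aged choroid plexus, with a median of 2312.5 to 3198 UMIs per cell. Levels are a gene's UMIs per 1000000 UMIs of the summed cells (CPM). Cells with a UMI of Cd4 and none of Cd8a or Cd8b1 form the CD4 class, those with Cd8a or Cd8b1 and no Cd4 the CD8 class. The class with neither held 1843 of the 4114 cells and can include cells whose co-receptor was not captured as well as cells without one, which were not told apart. The remaining 97 cells had UMIs of both. Cells with a Ccr7 UMI and no Cxcr3, Cxcr6 or Cd44 UMI, a naive pattern, made up 515 of the young meningeal and 279 of the young choroid plexus T cells but 83 and 52 of the aged ones. Young and aged libraries therefore differed in the makeup of their T cells as well as in the 5 genes. The part of that makeup in the age differences was not tested. Folds with age below compare all T cells of a library or class, whatever their makeup.

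Penk encodes proenkephalin, a precursor that is cut at pairs of basic residues into Met- and Leu-enkephalin, peptides that act on the mu and delta opioid receptors of neurons. Calca encodes, by alternative splicing, either calcitonin or calcitonin gene-related peptide (CGRP), a vasodilator and immune modulator of sensory nerves. Nrn1 encodes neuritin, a small membrane-anchored protein first known for promoting neurite growth and also made by regulatory T cells. Spp1 encodes osteopontin, a phosphoprotein that binds integrins and CD44 and is made by macrophages and by some activated T cells. Sostdc1 encodes a secreted antagonist of bone morphogenetic protein (BMP) and Wnt ligands, also known from a subset of follicular helper T cells.

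In mouse build GRCm38 (GENCODE vM21), Penk (ENSMUSG00000045573) lies at chr4:4133531-4138819 on the minus strand and overlaps A830012C17Rik on the opposite strand. Calca (ENSMUSG00000030669) lies at chr7:114631478-114636357, minus strand, with 7 annotated transcripts of which 6 are coding. Gene-level counts do not separate its calcitonin from its CGRP form. Nrn1 (ENSMUSG00000039114) lies at chr13:36725361-36735131, minus strand, and overlaps Fars2 and Gm30177 on the opposite strand. Spp1 (ENSMUSG00000029304) lies at chr5:104435118-104441050, plus strand, where Gm42793 overlaps it on the same strand, so reads in the shared stretch could be split between them. Sostdc1 (ENSMUSG00000036169) lies at chr12:36314139-36318452, plus strand.

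Penk RNA codes for the peptides themselves, and a stretch of its coding sequence is shown for that reason. It is read from the reference genome at chr4:4134067-4134354 on the minus strand, within exon 2 of 2 of the coding transcript. The open reading frame has 268 codons and holds 7 enkephalins, 6 Met-enkephalins and 1 Leu-enkephalin, of which 5 have a pair of lysine or arginine codons on both sides. Capitals mark the 5 codons of each of the 4 Met-enkephalins in this stretch, which runs 5′ to 3′.
Penk: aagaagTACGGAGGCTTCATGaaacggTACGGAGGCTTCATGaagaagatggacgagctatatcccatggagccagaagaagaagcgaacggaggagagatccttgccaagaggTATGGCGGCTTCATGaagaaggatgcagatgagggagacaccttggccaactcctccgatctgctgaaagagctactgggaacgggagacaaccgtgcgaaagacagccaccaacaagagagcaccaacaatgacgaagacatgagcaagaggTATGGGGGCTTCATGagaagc

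All 5 genes had their highest level in an aged library, and in each the RNA came from few cells. In young meninges 22 of 1007 T cells (2.18%) and in young choroid plexus 7 of 605 (1.16%) had a UMI of any of the 5 genes. The counts were 130 of 1408 (9.23%) in aged meninges and 97 of 1094 (8.87%) in aged choroid plexus. A cell with at least 1 UMI of a gene is called a carrier of it below.

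Penk was measured at 9.95 CPM (6.93 to 13.8) in young meninges, from 35 UMIs in 7 cells. No UMI was found in young choroid plexus, where the interval reaches 1.82 CPM and 0 of 605 cells, taken at a floor of 3 counts, allows a share of up to 0.496%. The level was 51.9 CPM (44.9 to 59.7) in aged meninges, from 197 UMIs in 49 cells. It was 124 CPM (113 to 136) in aged choroid plexus, from 452 UMIs in 39 cells. The 4 intervals did not overlap, with aged choroid plexus highest and young choroid plexus lowest. Aged over young, the fold was 5.22 (3.63 to 7.71) in meninges and at least 83.8-fold in choroid plexus, the latter against a floor of 3 UMIs per library.

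Carriers of Penk were about as common in both aged tissues, 3.48% (2.59 to 4.57) of T cells in meninges and 3.56% (2.55 to 4.84) in choroid plexus, while more of the choroid plexus carriers held many UMIs. With every cell thinned to 1000 UMIs the shares were 2.19% and 2.24%. In aged meninges 22 of the 49 carriers had 1 UMI and 10 had 5 or more, up to 22 in a cell. In aged choroid plexus 16 of the 39 had 5 or more and the 2 highest held 73 and 68. The top 3 cells gave 31.5% of the Penk UMIs in aged meninges and 44.9% in aged choroid plexus. In young meninges the top 3 gave 88.6%, so the young level rests on 3 cells. Among cells of the naive pattern, a class not expected to make the peptide, 0 of 83 carried Penk in aged meninges (median depth 2763 UMIs). The share of the other T cells was 3.70% (median 2268). In aged choroid plexus 1 of 52 did (1.92%, median 3293.5) against 3.65% (median 2823). The intervals of the naive shares reach 4.35% and 10.3%, so the shares alone do not stand above that class. The levels were 0 CPM (up to 14.5) and 55.7 CPM in aged meninges, and 5.41 CPM (up to 30.1) and 130 CPM in aged choroid plexus. Outside the naive pattern the young levels of Penk were 19.2 CPM in meninges and 0 CPM in choroid plexus.

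Calca was the sparsest of the 5 genes. It had no UMI in the T cells of either young library and 23 UMIs in 8 cells (0.568% of T cells) in aged meninges, or 6.06 CPM (3.84 to 9.10). Its 14 UMIs in 4 cells (0.366%) of aged choroid plexus gave 3.83 CPM (2.10 to 6.43). The intervals of both aged libraries overlapped, and the levels were at least 7.11-fold and at least 2.59-fold above the floor of the young library of the same tissue. A single cell held 8 of the 23 UMIs in aged meninges and another 10 of the 14 in aged choroid plexus.

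Nrn1 was the one gene found in all 4 libraries. Its level was 11.1 CPM (7.88 to 15.2) in young meninges, 2.95 CPM (1.08 to 6.43) in young choroid plexus, 19.5 CPM (15.3 to 24.5) in aged meninges and 35.3 CPM (29.5 to 42.0) in aged choroid plexus. Intervals of both meningeal libraries nearly touched, and the folds with age of 1.76 (1.18 to 2.66) in meninges and 12 (5.34 to 33.2) in choroid plexus had separate intervals. The highest cells of young meninges held 12 and 9 of its 39 UMIs, and the top 3 gave 61.5%. The young meningeal level and the fold against it thus rest on few cells, which the intervals do not cover. Carriers numbered 15 (1.49%), 6 (0.992%), 52 (3.69%) and 54 (4.94%). Most held little: 40 of 52 in aged meninges and 30 of 54 in aged choroid plexus had 1 UMI, and no cell had more than 12. The cells of the naive pattern carried Nrn1 in 2 of 83 in aged meninges (2.41%) and 2 of 52 in aged choroid plexus (3.85%), against 3.77% and 4.99% of the other T cells. The intervals of those shares overlap, so single UMIs of Nrn1 in the aged libraries are not separable from background by this measure. The levels were 7.87 CPM in the naive pattern and 20.3 CPM in the rest in aged meninges. In aged choroid plexus the naive pattern was higher, at 54.1 CPM from 10 UMIs in 2 cells against 34.3 CPM. Outside the naive pattern the young levels of Nrn1 were 19.7 CPM in meninges and 5.16 CPM in choroid plexus. In meninges the young and aged levels outside that pattern were therefore close.

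Spp1 was all but absent from the young libraries, with 0 UMIs in meninges and 1 UMI in choroid plexus. The aged libraries held 160 UMIs in 24 cells, or 42.2 CPM (35.9 to 49.2), in meninges and 232 UMIs in 20 cells, or 63.5 CPM (55.6 to 72.2), in choroid plexus. Aged over young, the level was at least 49.5-fold higher in meninges, and the ratio in choroid plexus was 129 with an interval of 22.9 to 5117. Carriers made up 1.70% and 1.83% of T cells, or 1.24% and 1.12% after thinning. Osteopontin RNA was concentrated in single cells: 1 cell held 58 of the 160 UMIs in aged meninges, and 98 of the 232 lay in 1 CD4 cell of aged choroid plexus, where they were 98 of that cell's 4272 UMIs. The top 3 cells gave 58.8% and 70.3% of the gene's UMIs, and the difference between the aged tissues rests on them. Of the cells with the naive pattern, 0 of 83 and 1 of 52 (1.92%) carried Spp1, against 1.81% and 1.82% of the other T cells. The intervals of the naive shares reach 4.35% and 10.3%, so the shares alone do not stand above that class. The levels were 0 CPM (up to 14.5) and 45.2 CPM in aged meninges, and 5.41 CPM (up to 30.1) and 66.6 CPM in aged choroid plexus.

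Sostdc1 was not found in a young T cell. The aged libraries held 109 UMIs in 26 cells (1.85%) in meninges and 140 UMIs in 19 cells (1.74%) in choroid plexus. The levels of 28.7 CPM (23.6 to 34.7) and 38.3 CPM (32.2 to 45.2) had overlapping intervals. They were at least 33.7-fold and at least 25.9-fold above the young floor of the same tissue. After thinning, 1.31% and 1.12% of T cells carried the gene. The highest cell had 18 UMIs in aged meninges and 41 in aged choroid plexus, and the top 3 gave 42.2% and 57.1% of the UMIs. Of the cells with the naive pattern, 2 of 83 (2.41%) and 0 of 52 (up to 6.85%) carried Sostdc1. The shares of the other T cells were 1.81% and 1.82%, so the shares alone do not stand above that class in either tissue. The levels were 7.87 CPM (up to 28.4) and 30.2 CPM in aged meninges, and 0 CPM (up to 19.9) and 40.4 CPM in aged choroid plexus.

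**Figure D1:**
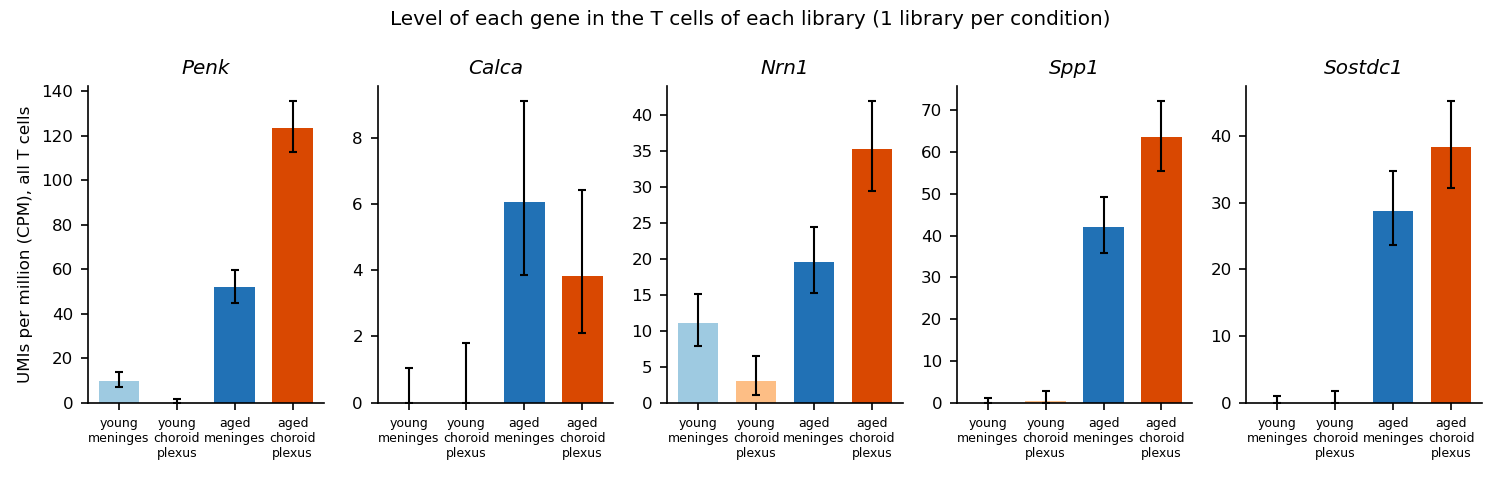
Level of each gene in the T cells of each library, in CPM, with exact 95% Poisson intervals as error bars and 1 library per bar. The highest bar of Penk, Nrn1, Spp1 and Sostdc1 is aged choroid plexus (124, 35.3, 63.5 and 38.3 CPM), and that of Calca is aged meninges (6.06 CPM). Each panel has its own scale.

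By a fixed rule of size, a gene is counted as higher with age when the higher library has 20 or more UMIs of it and the log2 ratio of CPM + 10 is 1 or more. In meninges 3 of the 5 genes met it, at log2 ratios of 1.63 for Penk, 2.38 for Spp1 and 1.95 for Sostdc1, where 2.37% of all genes tested did. In choroid plexus 4 of the 5 met it, at 3.74 for Penk, 1.81 for Nrn1, 2.81 for Spp1 and 2.27 for Sostdc1, where the share of all genes was 2.21%. Within the CD4 class the same counts of 3 and 4 stood beside 4.23% and 7.27% of all genes. The genes were chosen on these ratios, so nothing is read from the counts. Nrn1 in meninges (0.48) and Calca in both tissues (0.68 and 0.47) did not meet the rule.

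**Figure D2:**
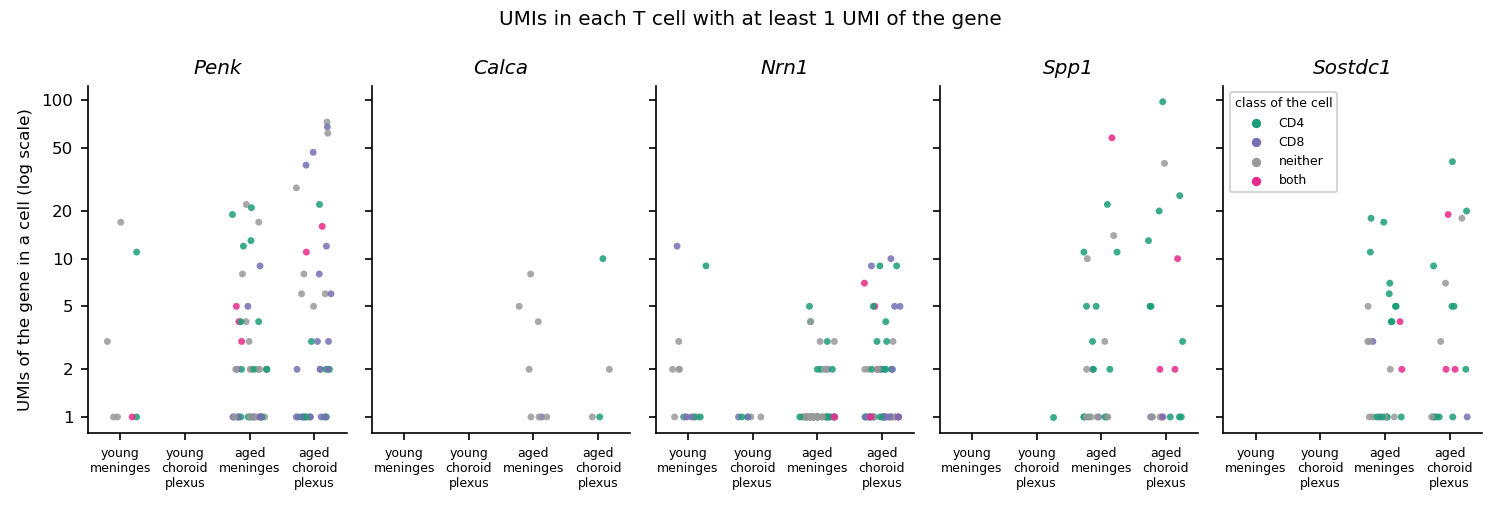
UMIs of each gene in every T cell that had at least 1, on a log scale, by library and coloured by class. Penk reaches 73 UMIs in a cell and Spp1 98, both in aged choroid plexus, while most Nrn1 carriers sit at 1 UMI.

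The genes differed in the classes that carried them. In aged meninges the T cells were 25.7% CD4, 20% CD8 and 52.2% neither, and in aged choroid plexus 21.0%, 43.2% and 32.7%. Penk was in every class. In aged meninges its level was 85.9 CPM (68.8 to 106) in CD4, 24.3 CPM (15.2 to 36.8) in CD8 and 43.9 CPM (34.6 to 54.9) in neither, from 16, 9 and 21 carriers. In aged choroid plexus the order turned, with 47.1 CPM (32.6 to 65.8) in CD4, 115 CPM (99.3 to 132) in CD8 and 192 CPM (166 to 222) in neither, from 9, 18 and 10 carriers. A few cells set that order: 2 cells held 135 of the 192 UMIs in neither and 3 held 154 of the 199 in CD8. Carriers made up 3.91% of CD4, 3.81% of CD8 and 2.79% of neither cells there, shares with overlapping intervals. In the CD4 class the fold with age was 6.35 (3.45 to 12.8) in meninges and at least 7.80-fold in choroid plexus, and in the CD8 class it was at least 8.56-fold and at least 24.3-fold. Of the CD4 UMIs, 1 cell held 11 of 12 in young meninges and another 22 of 34 in aged choroid plexus. Without the top CD4 cell of each library the log2 ratio of CPM + 10 went from 2.03 to 2.76 in meninges. In choroid plexus it went from 2.51 to 1.42.

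Of the CD4, CD8 and neither classes, CD4 had the highest level of Spp1 and Sostdc1 in both aged tissues. Spp1 was at 65.2 CPM (50.4 to 82.9) in CD4 against 3.31 (0.684 to 9.69) in CD8 and 19.0 (13.1 to 26.8) in neither in aged meninges. Its levels in aged choroid plexus were 238 CPM (204 to 277), 1.15 CPM (0.14 to 4.16) and 43.1 CPM (31.2 to 58). Sostdc1 was at 81.0, 4.42 and 9.81 CPM in aged meninges and at 119, 1.15 and 29.1 CPM in aged choroid plexus. In the neither class of aged choroid plexus, 1 cell held 40 of the 43 Spp1 UMIs, and without it the level was 3.03 CPM. Another cell of that class held 18 of the 29 Sostdc1 UMIs, and without it the level was 11.05 CPM. In the CD4 class there, the levels without the top cell were 103 CPM for Spp1 and 62.8 CPM for Sostdc1. The few cells with UMIs of both co-receptors were also high, led by 1 of 30 such cells in aged meninges that held 58 Spp1 UMIs and put that class at 406 CPM. The CD8 class held 2 carriers of each gene in each aged library, although it was the largest class of aged choroid plexus.

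Nrn1 in aged meninges was at 28.6 CPM (19.2 to 41.1) in CD4, 5.52 (1.79 to 12.9) in CD8 and 21.4 (15 to 29.4) in neither, so the CD4 and neither classes overlapped. In aged choroid plexus the CD4 level of 67.9 CPM (50.2 to 89.7) was above both 26.5 CPM (19.4 to 35.4) in CD8 and 18 CPM (10.7 to 28.5) in neither. Its CD8 level was 13.2 CPM in young meninges, where 1 cell held 12 of the 14 UMIs, and the fold with age in that class was 0.417 (0.118 to 1.23), an interval that includes no change. Without that cell the young level was 1.93 CPM (0.234 to 6.98), below the aged one, so the direction rests on it. In choroid plexus CD8 cells it was 8.41 (2.20 to 71.5). Calca was in the neither class in 7 of its 8 carriers of aged meninges and in 2 of 4 of aged choroid plexus, where the other 2 were CD4 cells.

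Receptors, processing enzymes and related peptides were undetected about as often as all genes of the matrices. Of 101 other genes of the opioid, CGRP, neuritin, osteopontin, BMP and Wnt, and neuropeptide systems, 51 had no UMI in any T cell. Of all 31053 genes, 15273 had at least 1, so nothing is read from that count. In meninges 27 could be tested and 4 of them (14.8%, beside 2.37% of all genes) met the size rule with age, all higher: Igf1r, a growth factor receptor (4.83 to 20.3 CPM), Itgav, an integrin subunit that binds osteopontin (21.9 to 60.1 CPM), Dkkl1, a relative of the Dickkopf Wnt antagonists (7.67 to 37.4 CPM), and Nmb, the precursor of neuromedin B (11.1 to 33.5 CPM). In choroid plexus 28 could be tested and 3 of them (10.7%, beside 2.21% of all genes) were higher. Dkkl1 (13.8 to 58.9 CPM), Bmp7, a BMP ligand (6.89 to 24.6 CPM), and Nmb (8.86 to 33.9 CPM) were the 3, and Vipr1, a receptor of vasoactive intestinal peptide (19.7 to 3.83 CPM), was lower. Igf1r in choroid plexus (log2 ratio 0.96) and Bmp7 in meninges (0.67) did not meet the rule.

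Other genes of the opioid system were few. The opioid precursors Pdyn and Pnoc had no UMI, while Pomc had 12 and 2 UMIs in young and 16 and 17 in aged meninges and choroid plexus, too few for the size rule. Of 5 opioid receptor genes 3 had none in any library. The one tested, Ogfr, the nuclear opioid growth factor receptor, was at 40.1 and 40.9 CPM in young and aged meninges and 29.0 and 34.5 CPM in choroid plexus. Furin, a protease of secreted precursors, was at 19.0 and 19.5 CPM in meninges and 10.8 and 12.6 CPM in choroid plexus. The CGRP receptor subunits were present without Calca: Ramp1 was at 109 and 91.5 CPM in young and aged meninges and 93.0 and 87.0 CPM in choroid plexus, and Calcrl at 17.1 and 7.91 CPM and 23.1 and 12.9 CPM. The osteopontin receptor Cd44 was at 45.8 and 95.4 CPM in meninges and 41.8 and 83.8 CPM in choroid plexus, with log2 ratios of 0.92 and 0.85 that did not meet the rule. These values are of the same T cells and say nothing of receptors on other cells.

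To see what else the carriers expressed, the summed carriers of a gene were set against all other T cells of the same library, as the log2 ratio of CPM + 50 averaged over the libraries with at least 15 carriers. A gene was counted as higher in carriers when that mean was 1 or more, every library had the same sign and at least 20% of the carriers had a UMI of it, and as lower by the mirror rule. Aged meninges and aged choroid plexus entered for Penk, Spp1 and Sostdc1, and young meninges too for Nrn1. Calca had too few carriers. All of these are comparisons of cells within libraries, with no replicate check.

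In carriers of Penk 16 of 2122 genes tested (0.754%) were higher and 1 was lower. Tnfrsf9, the costimulatory receptor 4-1BB, had a mean log2 ratio of 1.73 and stood at 169 CPM in carriers against 32.5 CPM in other T cells of aged meninges and at 269 against 26.8 CPM in aged choroid plexus. Tnfrsf4, the receptor OX40, had 1.69, with 585 against 256 CPM and 1211 against 200 CPM. Pdcd1, the inhibitory receptor PD-1, had 1.36, and was found in 55.1% of carriers against 19.6% of other T cells in aged meninges and in 66.7% against 20.4% in aged choroid plexus. Ccr8, a chemokine receptor of type 2 and regulatory T cells in tissue, had 1.26, at 32.7% against 4.56% and 25.6% against 4.93% of cells. Odc1, the rate-limiting enzyme of polyamine synthesis, had 1.57, with 717 against 239 CPM and 667 against 166 CPM.

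The tetraspanin Cd81 (1.64), the G-protein signalling regulator Rgs16 (1.53), Nrn1 (1.46) and Sdf4 (1.24) complete the list of Penk carriers with Xcl1. Xcl1, the chemokine lymphotactin, had a mean log2 ratio of 1.52, but 128 of the 146 Xcl1 UMIs in meningeal carriers lay in 1 cell, and without the top cell of each library the value was 0.10. The other 9 stayed at 1 or more without their top cell. Ccr8 no longer met the rule after thinning to 1000 UMIs (0.49), nor did Xcl1 (0.80). Without T cells that had a UMI of other cell types, which left 15 carriers in 1 library, Xcl1 turned to -0.84, and Ccr8, Cd81, Nrn1, Odc1 and Tnfrsf9 no longer met the rule. The one gene counted as lower was Klf2, a transcription factor of naive and recirculating T cells, at 66.3 against 440 CPM in aged meninges and 44.9 against 195 CPM in aged choroid plexus (mean log2 ratio -1.72).

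In carriers of Nrn1 17 of 2106 genes (0.807%) were higher and 1, Satb1, a chromatin organiser of naive T cells, was lower (-1.04). Tnfrsf4 (1.93) and Pdcd1 (1.68) led. Pdcd1 was at 413 against 128 CPM in aged meninges and 376 against 106 CPM in aged choroid plexus. Cd200, a ligand of an inhibitory receptor, had 1.36, with 154 against 31.0 CPM and 159 against 19.2 CPM. Foxp3, the lineage factor of regulatory T cells, had 1.11 and was found in 32.7% of Nrn1 carriers against 9.14% of other T cells in aged meninges and in 18.5% against 5.96% in aged choroid plexus. Cd81 (1.36), Rgs16 (1.32), the Rab regulator Tbc1d4 (1.25), the inhibitory receptor Tigit (1.24), the transcription factor Bhlhe40 (1.07) and 2310001H17Rik (1.07) were the others. Foxp3 no longer met the rule after thinning (0.89), with carriers of 2 or more UMIs (0.31) or without cells that had a UMI of other cell types (1.33). 2310001H17Rik did not meet it after thinning or in the last case, nor did Cd81 and Rgs16 in the last. Of these 10, only Tnfrsf4, Pdcd1 and Tbc1d4 stayed at 1 or more without the top cell of each library, so the list rests on few cells.

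In carriers of Spp1 64 of 2311 genes (2.77%) were higher and 12 lower. Sostdc1 led with a mean log2 ratio of 4, at 808 CPM in carriers against 9.19 CPM in other T cells of aged meninges and 1112 against 16.2 CPM in aged choroid plexus. Tnfsf8, the CD30 ligand also called CD153, had 2.33, with 582 against 110 CPM and 827 against 86.6 CPM. Cd200 had 2.37 and was found in 50% of carriers against 6.21% and in 40% against 5.59%. Nrn1 (2.38), Tbc1d4 (2.32), the endosomal protein Eea1 (2.15), the secreted binding protein Igfbp7 (2.02), Sdf4 (1.89) and 1700019D03Rik (1.87) were the other named genes that stayed at 1 or more without the top cell.

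Cst3, the protease inhibitor cystatin C that macrophages make in quantity, had a mean log2 ratio of 2.84 in Spp1 carriers and 0.53 without the top cell. That cell of aged meninges held 285 of the 308 Cst3 UMIs, 17457 UMIs in all, 14 of the macrophage gene Lyz2, 3 of the CD3 genes and 1 of Spp1. Macrophage genes as a list stood at 301.8 CPM in the meningeal Spp1 carriers against 21.1 CPM in other T cells, and 6 of 24 carriers (25.0%) against 1.95% of other T cells had a UMI of the list. These 6 carriers held 49 of the 160 Spp1 UMIs. In aged choroid plexus 1 of 20 carriers had a macrophage UMI, and it held 1 of the 232 Spp1 UMIs. Without T cells that had a macrophage UMI, an alternative chosen after seeing the data, the meningeal log2 ratio of Spp1 with age was 2.01 instead of 2.38.

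The genes lower in Spp1 carriers included several of CD8 and cytotoxic cells. Ccl5, a chemokine of effector T cells, was at 280 CPM against 6397 CPM in aged meninges and at 4487 against 5717 CPM in aged choroid plexus (mean log2 ratio -2.32). Cd8a (-1.77), Cd8b1 (-1.42), Nkg7 (-1.60), a cytotoxic granule protein, and Ctsw (-1.17), a protease of cytotoxic cells, were lower too. Cd4 was in 58.3% of Spp1 carriers against 27.3% of other T cells in aged meninges and in 70.0% against 23.2% in aged choroid plexus.

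Carriers of Sostdc1 had 57 of 2059 genes (2.77%) higher and 16 lower. Spp1 led at 3.80, with 1557 against 9.43 CPM in aged meninges and 676 against 51.4 CPM in aged choroid plexus. Cd200 followed at 2.46, in 46.2% of carriers against 6.22% of other T cells and in 57.9% against 5.30%. Tnfsf8 had 2.12 and was found in 69.2% of carriers against 17.2% in aged meninges and in 68.4% against 18.8% in aged choroid plexus. Ramp1, the subunit that turns the calcitonin receptor-like receptor into a CGRP receptor, had 1.88, at 299 against 87.0 CPM and 620 against 76.5 CPM. Nrn1 (2.05), Eea1 (1.99), Tbc1d4 (1.99), the membrane glycoprotein Gpm6b (1.99), the activation marker Cd83 (1.96) and Ebi3 (1.92), a subunit of interleukin-27 and interleukin-35, complete the list. All 10 stayed at 1 or more without their top cell, and Cd83 no longer met the rule after thinning. The lower genes again included Ccl5 (-2.85), Nkg7 (-2.71), Cd8a (-1.69) and Gzmk (-1.23), which encodes granzyme K of memory CD8 T cells.

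**Figure D3:**
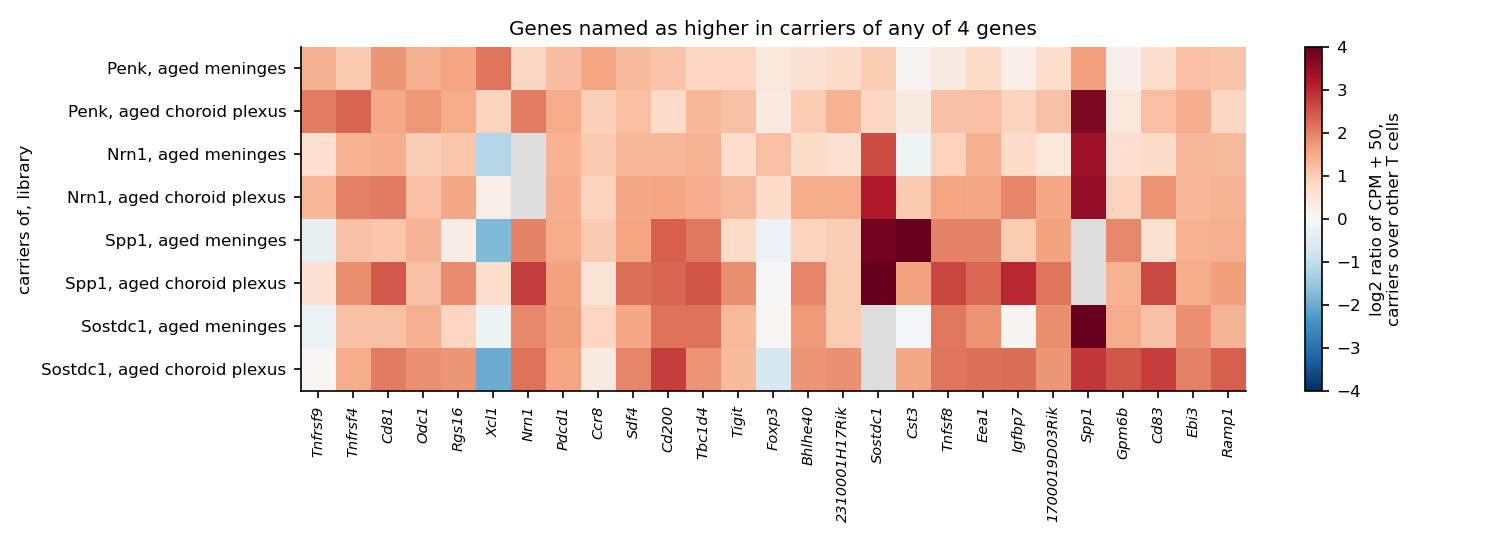
Log2 ratio of CPM + 50, carriers over the other T cells of the same library, for the 27 genes named as highest in carriers of Penk, Nrn1, Spp1 or Sostdc1. Red is higher in carriers, blue lower, and grey marks the carried gene itself. Spp1 and Sostdc1 rows share their darkest columns, each other's gene, and Xcl1 and Cst3 are dark mainly in 1 row each.

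State lists described the same cells by group, and their counts stand beside the shares of all genes above. Of 13 regulatory T-cell genes, 5 were higher in Nrn1 carriers (Foxp3, Ikzf2, Ctla4, Tnfrsf4 and Tnfrsf18), with a list median log2 ratio of 0.81 against 0.09 for all genes tested. Penk carriers had 3 of them (Ctla4, Tnfrsf4 and Tnfrsf9; 0.61 against 0.11), while Spp1 and Sostdc1 carriers had 2 each. Of 14 genes of follicular helper and exhausted T cells, Sostdc1 carriers had 6 higher (Pdcd1, Lag3, Tigit, Slamf6, Izumo1r and Cd200; median 0.99 against 0.16) and Spp1 carriers 5 (Pdcd1, Lag3, Tigit, Icos and Cd200; 0.82 against 0.21). Nrn1 carriers had 3 and Penk carriers 2 of these 14. Of 13 cytotoxic genes none was higher in carriers of any gene, 3 were lower in Sostdc1 carriers (Gzmk, Nkg7 and Ctsw) and 2 in Spp1 carriers. The gamma-delta, cycling and interferon lists had 0 genes counted in either direction. In the naive, type 1, type 2, type 17, residency, anergy, activation and natural killer T-cell lists at most 1 gene was counted in a direction: among naive genes Klf2 was lower in Penk and Satb1 in Nrn1 carriers, among type 1 genes Ccl5 was lower in Spp1 and Sostdc1 carriers, among type 2 genes Ccr8 was higher in Penk carriers, and among type 17 genes Maf was higher in Spp1 carriers. Bhlhe40 of the tissue residency list was higher in Nrn1, Spp1 and Sostdc1 carriers and Cxcr6 lower in Sostdc1 carriers. Anergy genes gave Nfatc1 higher in Spp1 and Izumo1r in Sostdc1 carriers, activation genes Tnfrsf9 higher in Penk carriers, and natural killer T-cell genes Xcl1, higher in Penk and lower in Sostdc1 carriers. A list of genes of CD153-positive senescence-associated T cells held 4 genes other than the 5 followed here. It was drawn up with earlier results of these data known, so nothing is read from its counts. Tnfsf8, Tbc1d4 and Hif1a were higher in Sostdc1 carriers, 2 of the 4 in Spp1 carriers and 1 each in Penk and Nrn1 carriers.

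Single markers placed the carriers in overlapping but unequal cells. PD-1-positive cells, those with a Pdcd1 UMI, held 50% to 73.7% of the carriers of each of the 4 genes in each aged library, against 19.6% to 21.1% of the other T cells. With cells thinned to 1000 UMIs the shares were 21.1% to 44.0% and 8.31% to 10.7%. Spp1 in aged meninges was at 164 CPM in cells with a Pdcd1 UMI and at 6.15 CPM in the rest, and Penk in aged choroid plexus was at 353 and 39.3 CPM. Tnfsf8 was in 18.4% of Penk carriers and 18.2% of other T cells of aged meninges, but in 62.5% of Spp1 and 69.2% of Sostdc1 carriers there. In aged choroid plexus it was in 33.3% of Penk carriers against 19.1%, and Penk was at 242 CPM in cells with a Tnfsf8 UMI against 91.3 CPM in the rest. Cells with a Tnfsf8 UMI, 256 of the 1408 T cells in aged meninges and 215 of 1094 in aged choroid plexus, held 88.8% and 92.7% of the Spp1 UMIs and 71.6% and 82.9% of the Sostdc1 UMIs.

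As a summed level, Penk was higher in cells with a Foxp3 UMI than in the rest. Penk was at 138 CPM in cells with a Foxp3 UMI against 39.7 CPM in the rest in aged meninges and at 455 against 89.7 CPM in aged choroid plexus, where 5 carriers gave the value. In young meninges it was at 140 against 5.02 CPM, from 2 carriers, of which 1 cell held 17 of the 18 UMIs. Nrn1 was at 42.5 against 16.3 CPM in aged meninges and 55.7 against 33.2 CPM in aged choroid plexus. A Foxp3 UMI was found in 11 of 49 and 5 of 39 Penk carriers, at a depth where 1 UMI is often missed. The shares of other T cells were 9.57% and 6.35%. With cells thinned as above, a Foxp3 UMI was in 10.2% of Penk carriers against 4.92% of other T cells in aged meninges. In aged choroid plexus the thinned shares were 2.63% and 2.71%, so no excess was seen there at equal depth. For Spp1 the levels were 29.7 CPM (16.2 to 49.9) and 43.9 CPM in aged meninges, and for Sostdc1 21.2 CPM (10.2 to 39) and 29.8 CPM, with a Foxp3 UMI in 12.5% and 11.5% of their carriers against 9.97% and 9.99% of other T cells. Sostdc1 had no UMI in the 72 Foxp3-positive cells of aged choroid plexus and 42.3 CPM in the others.

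Cxcr6, a receptor of tissue-resident T cells, was in 10.5% of Sostdc1 carriers and 23.1% of Penk carriers against 49.2% and 49.5% of other T cells in aged choroid plexus. In aged meninges the shares were close, 30.8% and 34.7% against 36%. Of the 19 Sostdc1 carriers of aged choroid plexus, 0 had a UMI of a gamma-delta receptor constant gene, against 17.2% of other T cells. In aged meninges 1 of 26 (3.85%) had one, against 6.15%. Cells with a UMI of Egr2 or Nr4a1, early genes of receptor signalling, were 35 in aged choroid plexus, and Penk was at 1223 CPM in them and 77.6 CPM in the rest. They held 8 of the 39 Penk carriers. In aged meninges such cells numbered 361 and Penk was at 76.4 against 40.9 CPM, so the libraries differed in these early genes themselves.

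**Figure D4:**
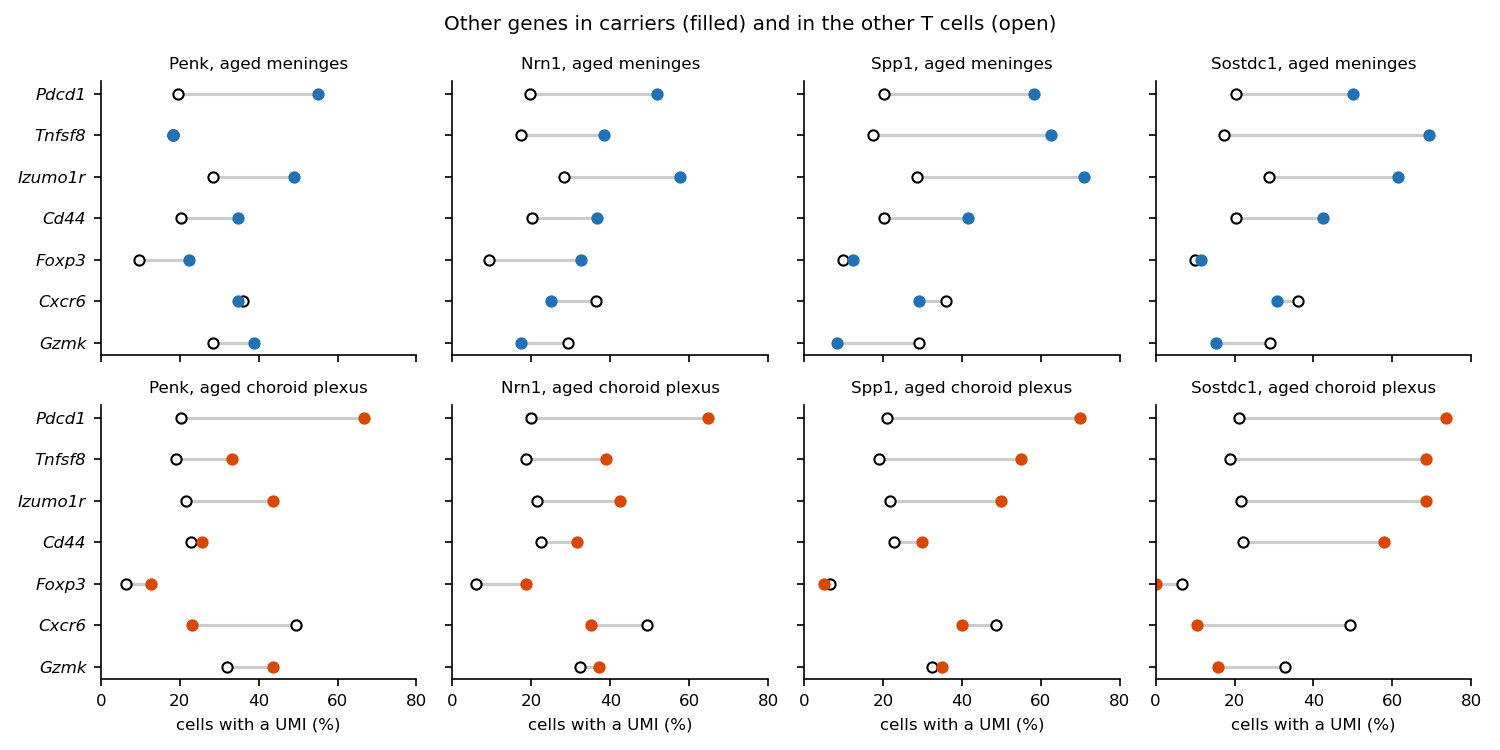
Percent of cells with a UMI of each of 7 marker genes among carriers (filled) and the other T cells of the same library (open), for 4 genes in both aged libraries. Filled points lie right of open ones for Pdcd1 in all 8 panels, for Tnfsf8 most in Spp1 and Sostdc1 carriers (55.0% to 69.2%), and for Foxp3 most in Penk and Nrn1 carriers.

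The same cell often carried more than 1 of the genes. In aged meninges 20 of the 130 cells with any of the 5 genes had UMIs of at least 2, and 2 cells had 4. The count was 32 of 97 in aged choroid plexus, and in each aged library 7 cells had 3 or more. No young cell had more than 1. Spp1 and Sostdc1 shared 9 cells in aged meninges, 37.5% of the Spp1 and 34.6% of the Sostdc1 carriers, where 1.23% of cells without Spp1 carried Sostdc1. They shared 4 cells in aged choroid plexus, 20% and 21.1% of the carriers, against 1.40% of cells without Spp1.

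Nrn1 was found with each of the other 3. Of aged choroid plexus carriers, 10 of 20 Spp1 carriers (50%) and 9 of 19 Sostdc1 carriers (47.4%) had a Nrn1 UMI, which is 18.5% and 16.7% of the Nrn1 carriers, while 4.1% and 4.19% of cells without Spp1 or Sostdc1 had one. In aged meninges the counts were 8 of 24 (33.3%) and 7 of 26 (26.9%), against 3.18% and 3.26%. Penk and Nrn1 shared 9 cells in aged meninges (18.4% of Penk and 17.3% of Nrn1 carriers) and 11 in aged choroid plexus (28.2% and 20.4%). Penk and Spp1 shared 4 cells in aged meninges and 8 in aged choroid plexus, the latter 20.5% of Penk and 40% of Spp1 carriers, where 2.89% of cells without Spp1 carried Penk. Penk and Sostdc1 met in 3 and 4 cells. Penk carriers of aged choroid plexus had a median of 3598 UMIs against 2831 in other T cells. With every cell thinned to 1000 UMIs, Spp1 and Sostdc1 shared 8 cells in aged meninges and 2 in aged choroid plexus, and Penk and Nrn1 shared 2 and 5.

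**Figure D5:**
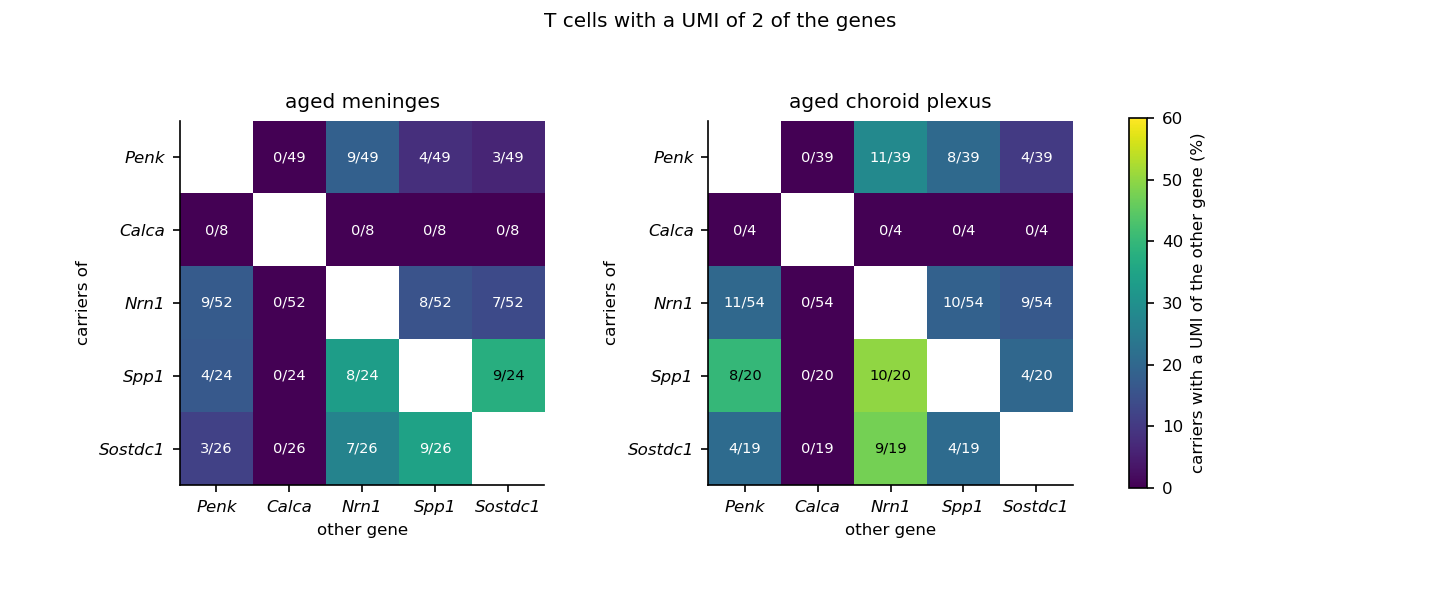
Cells with UMIs of 2 of the genes in both aged libraries. Each square gives the cells with both genes over the carriers of the row's gene, and its colour the percent. Calca shares no cell with the others, and the highest squares are Spp1 carriers with Nrn1 (10 of 20) and Sostdc1 carriers with Nrn1 (9 of 19) in aged choroid plexus.

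Calca was in none of these cells. Its 12 carriers had CD3 UMIs by the definition of T cells used here. Of the 12 carriers, 11 (91.7%) had a UMI of an alpha-beta constant gene, against 81.8% of the 2490 other T cells of the aged libraries. A UMI of a gamma-delta constant gene was in 2 (16.7% against 10.8%), and Trdc was in 0, against 0.201%. Type 2 genes were frequent in them. Areg, the growth factor amphiregulin, was in 7 of 12 (58.3%, 27.7 to 84.8) against 9.92% of the others, Gata3, the type 2 lineage factor, in 6 (50%) against 18%, and Il1rl1, the interleukin-33 receptor, in 4 (33.3%) against 4.94%. Pparg, a lipid-sensing factor of tissue type 2 and regulatory T cells that was looked at after its values were seen, was in 3 (25.0%) against 2.13%. The cytokine genes themselves were rare, with Il5 and Il4 in 1 cell each and Il13 in 0, and Foxp3 was in 2. Gzmk was in 0 against 30.5%, and Ccl5 in 4 against 59.3%. Summed over the type 2 list, Calca carriers stood at 3226 CPM against 559 CPM in aged meninges and at 637 against 288 CPM in aged choroid plexus. Areg gave 57 UMIs in 6 of the 8 meningeal carriers, out of 22030 UMIs in all, so most of the meningeal sum is 1 gene, and it was in 1 of the 4 choroid plexus carriers. Ramp1 was in 3 of the 12, all in aged choroid plexus.

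Carriers were spread over many T-cell receptors, as far as 1 variable gene per cell shows. Penk carriers used 16 different Trbv genes among 46 cells with one in aged meninges and 15 among 36 in aged choroid plexus. Nrn1 carriers used 15 among 45 and 16 among 50. Some sets had a commoner gene. Among Nrn1 carriers of aged meninges it was Trbv16, in 8 of 45 (17.8%, against 6.17% of other T cells). Trbv19 was in 6 of 23 Spp1 carriers of aged meninges (26.1%, against 7.88% of other T cells). Trbv16 was in 5 of 17 Spp1 carriers of aged choroid plexus (29.4% against 5.97%). Trbv19 and Trbv16 were also commonest among Sostdc1 carriers, in 4 of 26 (15.4% against 8.06%) and 4 of 17 (23.5% against 6.08%), and these carriers overlap those of Spp1.

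Markers of other cell types were raised in some carriers. No gene of the lists for other cell types was counted as higher in carriers of Penk, Nrn1, Spp1 or Sostdc1. The rule asks for a UMI of the gene in a set share of the carriers, which few of these genes could meet. In Penk carriers 1 of the 6 B-cell genes and 0 of the 10 macrophage genes reached that share. Immunoglobulin and haemoglobin genes were also left out of the named genes, so nothing is read from the absence of counted genes. Penk carriers had a macrophage UMI in 3 of 49 and 2 of 39 cells (6.12% and 5.13% against 2.21% and 1.04%). The list of choroid epithelium genes stood at 56.4 CPM in the Sostdc1 carriers of aged choroid plexus against 7.82 CPM in other T cells, in 15.8% against 2.42% of cells, with 7 of its 8 genes at 0. In aged meninges 0 of 26 Sostdc1 carriers had a UMI of that list. The part of choroid epithelium RNA in the Sostdc1 counts of choroid plexus was not tested. A UMI of the B-cell list was in 51.0% of Penk carriers against 29.1% of other T cells in aged meninges and in 53.8% against 30.3% in aged choroid plexus, with 3 of its 6 genes at 0 in the carriers. The lists for natural killer cells, neutrophils and innate lymphoid or mast cells were at 0 in the Penk carriers of both aged libraries.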

How the data were processed

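T cells were sorted and sequenced in 4 libraries with the 10x Genomics 5′ kit. The authors deposited filtered UMI counts per gene and cell, made with Cell Ranger on mm10 (version 3.1.0 in the file headers, 5.1.0 with STAR in the submitters' processing notes). From these deposited counts, cells with 200 to 7000 genes and at most 5% mitochondrial UMIs were kept, and doublets were removed with Scrublet in scanpy 1.11.5 at its automatic threshold, which called 16 and 22 cells in the young meninges and choroid plexus and 0 and 5 in the aged ones. Totals were 2295950 to 4262917 UMIs per library, and the T cells of a library held 2031304 to 3793034. At most 1 T-cell barcode was shared by a pair of libraries. Groups came from the labels. UMIs were summed per library and class and divided by total UMIs to give CPM, with pseudocounts of 10 CPM for ages and 50 CPM for carriers. Thinned values draw 1000 UMIs per cell and leave out 6 to 38 shallower T cells per library. No test was run, since each condition is 1 library.

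The 5 genes, the gene lists (pathways, T-cell states, other cell types) and the tests were chosen with earlier results of these data known. Named genes are the 5 genes, the 10 highest genes in carriers of each by mean log2 ratio without receptor V, D and J, immunoglobulin, mitochondrial, ribosomal and haemoglobin genes, the list genes with 20 or more UMIs in a library where they are named with values, and the marker genes. Tested on simulated data with a log2 change of 2 in 200 genes, the size rule recovered 84.5% in meninges and 86.5% in choroid plexus, with 0 of 8754 and 0 of 8593 unchanged genes counted. The carrier rule recovered 88.0%, with 0 of 1397 unchanged genes counted. Simulated counts were independent Poisson draws, with no gene concentrated in single cells and no spread between mice. These figures therefore do not cover genes counted because of 1 cell, as for Xcl1 and Cst3 above. Positions and the Penk sequence came from GRCm38 with GENCODE vM21, in which 30934 of the 31053 gene identifiers were found. Alternatives were another pseudocount, no filter on cells, other doublet removal, no CD3 requirement, thinning, leaving out cells with other-cell genes or the top cell, classes compared apart, and carriers with 2 or more UMIs. Software was Python 3.11.15, numpy 2.4.6, pandas 2.3.3, scipy 1.17.1, anndata 0.12.19 and matplotlib 3.10.9.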

Additional observations from a re-analysis of the deposited data

Results flagged for a closer look

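UMIs of 4 of the genes were also found in cells that the report does not count, each above the 3 UMIs that a count of 0 allows. Among cells that failed the limits on genes or mitochondrial RNA, Sostdc1 had 5 UMIs in young choroid plexus, 24 in aged meninges and 33 in aged choroid plexus. The 5 UMIs of young choroid plexus, where no T cell carried the gene, lay in 1 cell with 2254 UMIs of Ttr, the transthyretin gene of choroid epithelium, and 0 of the CD3 genes. Of the 33 in aged choroid plexus, 5 lay in a cell with 2035 Ttr UMIs and 1 CD3 UMI, and 27 in a CD4 cell with 25 CD3 UMIs and 5.08% mitochondrial RNA, just past the limit of 5%. The 24 of aged meninges lay in 6 cells that all had CD3 UMIs, no Ttr and 5.14% to 7.57% mitochondrial RNA. Nrn1 had 11 UMIs in such cells of aged meninges and 4 in aged choroid plexus, Spp1 had 7 in aged meninges and Penk 9 in aged choroid plexus. A cell of aged choroid plexus with no CD3 UMI held 4 Penk UMIs.

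The log2 ratio of Nrn1 with age (CPM + 10) in the CD8 class was -0.58 in meninges, with an interval of -1.45 to 0.41, and 1.47 in choroid plexus. The difference was not tested. The negative value rests on 1 young meningeal cell with 12 of the 14 UMIs. Without it, an alternative chosen after seeing the data, the meningeal ratio was 0.38, so an opposite direction is not shown.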

How the results depend on the processing

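The limits are those of 1 library per condition: no spread between mice is known, and the highest few cells set the levels of Penk, Spp1 and Sostdc1. At a median of 2312.5 to 3198 UMIs per cell a T cell without a UMI of a gene may still express it. No paired analysis was possible because each condition is 1 library and no result comes from a test. Among the alternatives counted here 1 value changed direction: Xcl1 in Penk carriers was at -0.84 without T cells that had a UMI of other cell types. Outside that count, Nrn1 in meningeal CD8 cells turned from -0.58 to 0.38 without its top young cell. The count of genes meeting the size rule with age stayed within 1.5 times its value in all 20 alternatives, and 71 of 90 log2 ratios of the single genes moved by less than their counting interval, as did 22 of 30 shares of cells. Of 232 alternative log2 ratios of named genes in carriers, 150 moved by no more than the SD between libraries, 81 moved more and 1 reversed.

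With a pseudocount of 1 CPM the log2 ratios with age were 2.27 for Penk, 2.82 for Calca, 5.43 for Spp1 and 4.89 for Sostdc1 in meninges, and 6.96 for Penk, 2.27 for Calca, 3.2 for Nrn1, 5.43 for Spp1 and 5.30 for Sostdc1 in choroid plexus. Without T cells with a UMI of other-cell genes they were 1.02 for Calca, 1.06 for Nrn1 and 1.51 for Sostdc1 in meninges, and 2.90 for Penk and 1.60 for Sostdc1 in choroid plexus. Without the top cell of each library Spp1 was at 1.88 and 2.22. Thinning gave 1.07 for Calca in meninges and 3.26 for Penk in choroid plexus. Without T cells with a macrophage UMI, added after seeing the data, Spp1 in meninges was at 2.01.

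Counts of genes in carriers moved more. Higher and lower genes numbered 41 and 5 for Penk, 35 and 5 for Nrn1, 171 and 32 for Spp1 and 147 and 41 for Sostdc1 with a pseudocount of 10 CPM. With classes compared apart there were 10 higher for Nrn1, 6 lower for Spp1 and 9 lower for Sostdc1. Thinning gave 0 lower for Penk, 4 lower for Nrn1, 100 higher for Spp1 and 94 higher for Sostdc1. With carriers of 2 or more UMIs the counts were 31 and 4 for Penk, 67 and 9 for Nrn1 and 143 and 45 for Sostdc1. Without cells with other-cell UMIs they were 155 and 39 for Penk, from 15 carriers of 1 library, and 10 lower for Nrn1. Under 15 carriers were left for Spp1 at 2 or more UMIs and for Spp1 and Sostdc1 without other-cell UMIs, so these were not run. Of the 10 genes named as higher, 4 for Penk and 6 for Nrn1 still met the rule in that last setting. Thinning left 8 for Penk, 8 for Nrn1, 10 for Spp1 and 9 for Sostdc1. The causes of these moves were not tested.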
